A study of Mus musculus with 4 samples.

Results

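The AP-1 and early growth response (EGR) factors described here are 10 transcription factor genes: Fos, Fosb, Fosl1, Fosl2, Jun, Junb, Jund, Atf3, Egr1 and Egr2. They were taken by name from the 28095 distinct gene names of a mouse expression array, with every non-control probe that carried one of these names, which gave 12 probes and 39 spots per array. Fosl2 and Junb had 2 probes each and the other genes had 1. All 12 probes were well above background on all 4 arrays, so that no member was lost to the filter on dim probes.

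The study asked which genes depend on Fgf18, a secreted fibroblast growth factor, in the resting (telogen) phase of the hair cycle. The group called cKO lacked Fgf18 in keratin 5-positive epithelial cells, which include the basal epidermis and the outer root sheath of the hair follicle. Both groups, cKO and WT, were C57BL/6 males aged 42 days by their labels, and back skin of full thickness was taken from 3 mice of each. The line that drove the deletion, the part of Fgf18 that was removed, and whether the WT mice carried a floxed allele or a Cre transgene are not given in the sources used here. PolyA RNA of the 3 mice was combined into 1 pool per genotype, labelled with Cy3 and read on 2 one-colour arrays. The arrays of a pool were technical duplicates. All standard errors, intervals and p-values below measure the spread between duplicate arrays and compare 2 RNA pools, since the spread between mice was not measured. Full-thickness skin holds many cell types, and in such a tissue fewer cells of a type and less RNA per cell cannot be told apart.

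AP-1 is a dimer of leucine zipper proteins. A JUN protein (Jun, Junb, Jund) pairs with another JUN, with a FOS protein (Fos, Fosb, Fosl1, Fosl2) or with an ATF protein such as Atf3, while FOS proteins need a JUN partner to bind DNA. Egr1 and Egr2 are zinc finger factors that bind GC-rich sites. Many of these genes are immediate-early genes: growth factors, wounding and stress switch them on briefly through MAP kinases and the serum response factor, which binds CArG boxes in their promoters. In skin, AP-1 is known for its control of keratinocyte proliferation, of the genes of the cornified envelope and of secreted proteases.

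The promoters of Fosb, Fosl2 and Egr2 are printed because Fosb was the only called member, Fosl2 and Egr2 had the largest differences above 0, and each holds a motif of these pathways. RefSeq promoter windows of 300 bases (250 before to 50 after the gene start, assembly GRCm38.p6, printed 5′ to 3′ on the gene's strand) were searched for 8 of the 10 members. No window of Fosl1 or Egr1 was searched. The letters searched on both strands were TGACTCA (the AP-1 site), TGACGTCA (the cyclic AMP response element, CRE), GCGNGGGCG (an EGR site) and the CArG box, and no searched motif overlapped another in the printed windows. Capitals mark the EGR site in Fosb and Fosl2 and the CArG box in Egr2.
Fosb, chr7:19309996-19310295, minus strand: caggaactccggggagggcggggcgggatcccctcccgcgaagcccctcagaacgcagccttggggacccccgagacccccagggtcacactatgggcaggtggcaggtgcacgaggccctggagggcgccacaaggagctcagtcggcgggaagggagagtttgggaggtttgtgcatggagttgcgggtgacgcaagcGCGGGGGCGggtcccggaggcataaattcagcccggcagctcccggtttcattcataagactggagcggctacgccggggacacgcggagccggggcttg
Fosl2, chr5:32136222-32136521, plus strand: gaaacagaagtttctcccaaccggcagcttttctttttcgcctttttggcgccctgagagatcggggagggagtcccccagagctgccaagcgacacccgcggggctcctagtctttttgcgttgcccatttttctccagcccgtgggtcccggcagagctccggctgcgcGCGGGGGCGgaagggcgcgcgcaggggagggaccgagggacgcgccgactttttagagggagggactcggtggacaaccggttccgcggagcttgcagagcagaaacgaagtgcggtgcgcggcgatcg
Egr2, chr10:67537619-67537918, plus strand: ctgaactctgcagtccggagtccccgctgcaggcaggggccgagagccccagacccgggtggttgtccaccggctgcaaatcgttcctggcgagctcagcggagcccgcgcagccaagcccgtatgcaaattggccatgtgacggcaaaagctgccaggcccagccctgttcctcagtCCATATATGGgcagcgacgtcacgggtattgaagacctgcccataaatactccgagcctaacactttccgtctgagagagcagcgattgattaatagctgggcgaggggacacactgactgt

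The EGR site began at position -50 relative to the start of Fosb and at -79 relative to that of Fosl2. It was found in 2 of the 8 members, and 5.602% of all 32544 promoter windows in the same table held it. The CArG box began at position -72 in the printed Egr2 window, the third of 5 for this gene, and 4 of those 5 windows held one. Windows 3, 4 and 5 overlap and hold the same box, while window 2 holds a different one. A CArG box was found in 1 of the 8 members, Egr2, and 1.641% of all windows held one. Letters more than 250 bases before a gene start were not searched. Neither the AP-1 site (5.193% of all windows) nor the CRE (1.801%) was found in a window of any of the 8 members. A match is a description of the letters and not a binding site.

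Every signal below is the processed intensity of a probe divided by the 75th percentile of its array, called the scaled signal. Apart from the marker sums below, levels are compared for 1 probe at a time, because the brightness of different probes is not on a common scale. All probe positions are on the mm9 build. A gene was called higher or lower in cKO at an adjusted p under 0.05 (limma, Benjamini-Hochberg over all genes tested) together with a difference of at least 1.5-fold. By this rule 1843 of 17555 genes (10.5%) were called, 996 (5.67%) higher and 847 (4.82%) lower in cKO. The 75th percentiles were 1403 and 1453 in cKO, against 1271 and 1316 in WT, and between 62.1% and 69.1% of spots were well above background.

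Among the 10 members 1 was called: Fosb fell in the cKO pool, and no member was called higher. Fosl2, Egr1 and Egr2 were higher in cKO with an adjusted p under 0.05 by limma but stayed under 1.5-fold, and Fos was lower in the same way, although its adjusted p was not under 0.05 in 8 of 15 other settings. These 5 genes made 50% of the members, against 55.8% of all genes tested (9797) that passed the adjusted p alone. Over all genes 22.2% passed it higher and 33.6% lower in cKO. The unadjusted p was under 0.05 for 7 of the 10 members, against 62.6% of all genes. The duplicate arrays of cKO and WT did not overlap for 9 of the 10 members, against 81.8% of all genes. Over single probes, 1 of the 12 member probes was called, against 9.72% of all 26070 probes tested. It was lower in cKO (4.8% of all probes), 0 were called higher (4.92%) by limma, and 11 did not overlap between the pools (79.8%). The median difference of the members was -0.01 on the log2 scale, with 5 genes above 0 and 5 below, beside -0.05 for all genes. The median size of the difference, without its sign, was 0.23 for the members and 0.19 for all genes. The members' counts thus lay near those of the array as a whole.

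**Figure D1:**
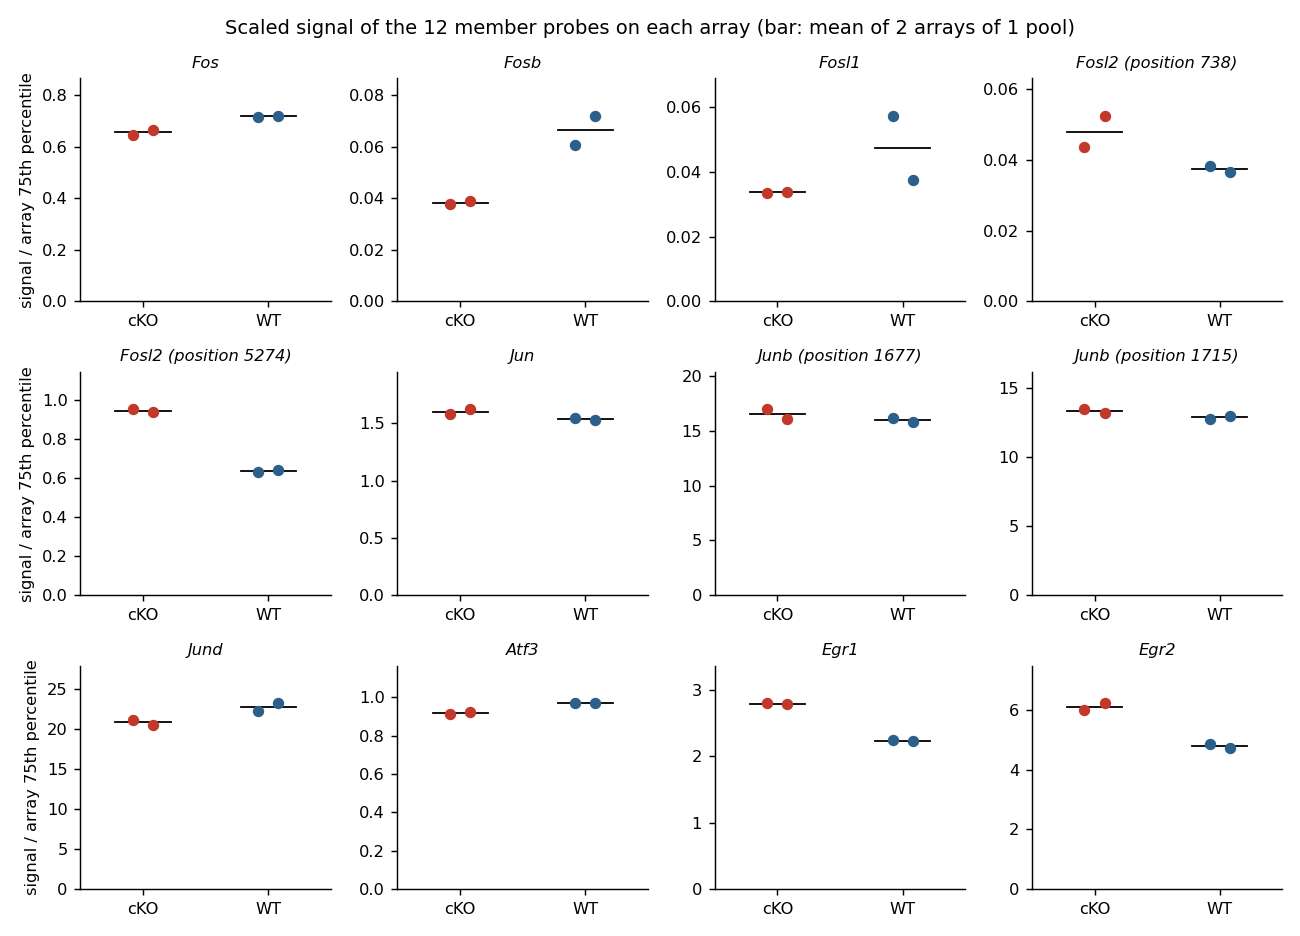
Each panel plots the scaled signal (processed signal over the array's 75th percentile, no unit) of 1 probe on the 2 cKO arrays (red) and the 2 WT arrays (blue), with a bar at the mean of the duplicates and an axis from 0 of its own. Fosb lay lower in cKO and Fosl2 (position 5274), Egr1 and Egr2 lay higher, while the Junb arrays overlapped at position 1677.

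The FOS family had the widest range of differences among the members, from -0.79 for Fosb to 0.58 for Fosl2 on the log2 scale. Its median was -0.30, with 3 genes lower and 1 higher in cKO. For Fosb, Fosl1 and the Fosl2 probe at position 738 the processed signals lay between 47.2 and 94.98. The lowest signal of any probe well above background was 33.5 and 18.5 in cKO, against 33.4 and 36.7 in WT, so these probes were read close to the limit of detection.

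Fosb encodes a FOS protein that is also made in a shortened splice form, known best from brain. Its probe (NM_008036, position 3284 of the transcript, chr7:19888477-19888536 on the minus strand of mm9) had scaled signals of 0.0377 and 0.0390 on the cKO arrays, against 0.0608 and 0.0722 on the WT arrays. Both cKO arrays were below both WT arrays, and the WT duplicates lay further apart than the cKO duplicates. Fosb fell 1.73-fold in the cKO pool (log2 difference -0.79 ± 0.10 SE, 95% interval -1.08 to -0.49, n = 2 arrays each, limma adjusted p = 0.00902). Of all genes tested, 2.47% were at least as far below 0. The adjusted p by limma was 0.0590 without cKO array 1 and 0.0536 without cKO array 2, and neither passed. Fosb was also not called with normexp background correction and quantile normalization, where the log2 difference was -0.43 and thus under 1.5-fold. Its promoter, printed above, holds an EGR site at position -50.

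Fosl2 encodes Fra-2, a FOS family protein that is expressed in the differentiating epidermis. The probe at position 5274 of NM_008037 (chr5:32459624-32459683, plus strand, mm9) had scaled signals of 0.951 and 0.939 in cKO, against 0.628 and 0.639 in WT. The duplicates lay close together and the groups were well apart. The difference was 0.58 ± 0.03 (SE, 95% interval 0.50 to 0.65, limma adjusted p = 0.00167), or 1.49-fold, just under the 1.5-fold needed for a call. It was called when arrays were scaled over commonly detected probes (0.61), and without cKO array 2 or WT array 2 (0.59 each). The other Fosl2 probe lies 4476 bases upstream on the genome, and it is printed here because it is the second reading of this gene.
Fosl2 probe at position 738, chr5:32455088-32455147, plus strand of mm9: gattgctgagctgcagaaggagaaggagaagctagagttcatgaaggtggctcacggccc

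That probe had scaled signals of 0.0435 and 0.0525 in cKO, against 0.0383 and 0.0366 in WT. The groups did not overlap, and the direction was that of the probe at position 5274. The difference of 0.35 ± 0.11 (SE) did not pass in the fit of all 26070 probes (limma adjusted p = 0.0743).

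Fosl1 encodes Fra-1, a FOS family protein known from wounded and transformed epithelium. Its probe (NM_010235, position 1262, chr19:5455496-5455555, plus strand) had scaled signals of 0.0336 and 0.0339 in cKO, against 0.0575 and 0.0375 in WT. The second WT array lay near both cKO arrays, and the gap between the WT duplicates (0.62 on the log2 scale) was larger than the gap of 0.14 between the nearest arrays of different pools. The difference of -0.46 ± 0.24 (SE, 95% interval -1.17 to 0.25, limma adjusted p = 0.188) did not pass. A single WT array decided this value: it was -0.77 without WT array 2, where Fosl1 was called lower (adjusted p = 0.0120 by limma), and -0.15 without WT array 1.

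Fos, the founding FOS gene, was measured by 10 repeat spots per array of a probe at position 1773 of NM_010234 (chr12:86817900-86817959, plus strand). The array means were 0.645 and 0.666 in cKO, against 0.716 and 0.721 in WT. The arrays did not overlap, but the difference was small: -0.13 ± 0.03 (SE, 95% interval -0.22 to -0.05), or 1.10-fold, with a limma adjusted p of 0.0294. It was not under 0.05 in 8 other settings, at 0.0593 with median scaling, 0.0603 with scaling over commonly detected probes, 0.0628 with a replicate block and 0.122 with no filter on dim probes, and between 0.0682 and 0.113 when 1 array was left out. Of all genes, 37.9% were at least as far below 0. Single spots ranged from 0.624 to 0.713 with a median of 0.652 in cKO (20 spots), against 0.661 to 0.770 with a median of 0.722 in WT (20 spots), so that the spots of the pools overlapped although their array means did not.

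**Figure D2:**
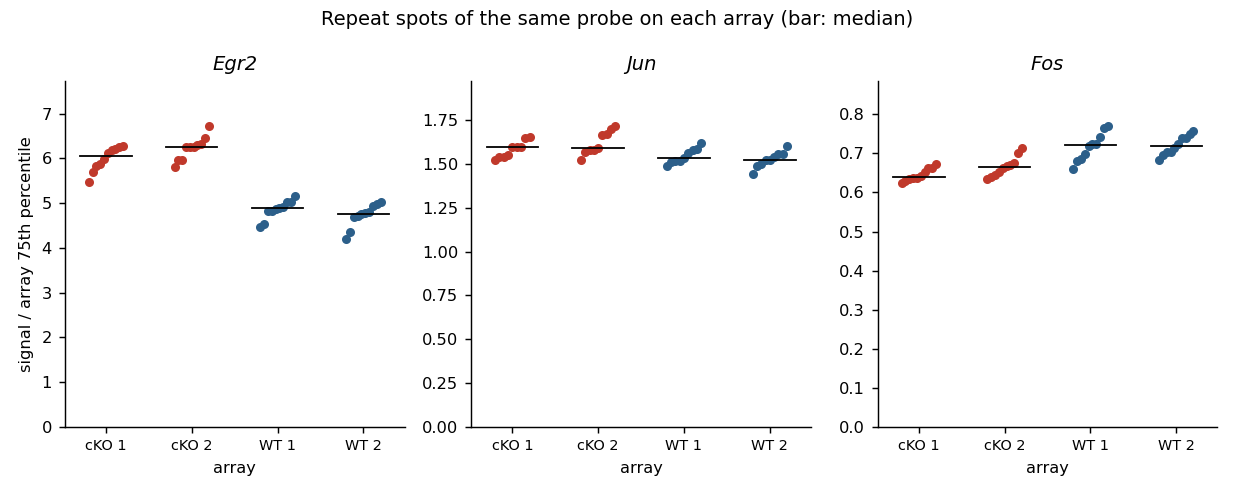
Repeat spots of the same probe on each array are plotted as scaled signal (no unit) for Egr2, Jun and Fos, with cKO arrays in red left of the WT arrays in blue and a bar at each array's median. The Egr2 spots of cKO (5.47 to 6.72) all lie above those of WT (4.20 to 5.15), while the spots of the pools overlap for Jun and Fos.

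The JUN family supplies the obligatory partners of the FOS proteins. In the main setting none of its 3 genes was called, none had a limma adjusted p under 0.05, and 1 had an unadjusted p under 0.05. The differences ran from -0.13 to 0.06 on the log2 scale. Junb was at 0.18 with quantile normalization (limma adjusted p = 0.0451) and with normexp background correction added (limma adjusted p = 0.0191). For Jund the adjusted p was not under 0.05 in 12 of 15 other settings.

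Jun, known in keratinocytes for its control of EGF receptor signalling, was read by a probe at position 2990 of NM_010591 (chr4:94715864-94715923, minus strand) with 10 spots, of which 9 were used on every array because 1 was marked as an outlier. Its array means were 1.58 and 1.62 in cKO, against 1.55 and 1.53 in WT. The gap between the pools was about as large as that between the cKO duplicates, and the difference was 0.06 ± 0.03 (SE, 95% interval -0.02 to 0.14, limma adjusted p = 0.145). Single spots ran from 1.52 to 1.72 in cKO and from 1.44 to 1.62 in WT (18 spots each) and overlapped. The interval keeps the difference of the pools under 1.5-fold in both directions.

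Junb, whose loss in mouse epidermis is known to cause inflammation, had 2 probes that share 22 bases and are therefore not separate readings. The probe at position 1677 of NM_008416 (chr8:87500881-87500940, minus strand) had scaled signals of 17.0 and 16.1 in cKO, against 16.2 and 15.8 in WT. These arrays overlapped, the only member for which they did, and the difference was 0.05 ± 0.04 (SE, 95% interval -0.07 to 0.17, limma adjusted p = 0.332). At position 1715 (chr8:87500843-87500902) the scaled signals were 13.5 and 13.2 in cKO, against 12.8 and 13.0 in WT. Here the arrays did not overlap, and the difference was again 0.05 ± 0.03 (SE, limma adjusted p = 0.218 over all probes).

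Jund, the broadly expressed JUN gene, was measured at position 2798 of NM_010592 (chr8:73224436-73224495, plus strand), with scaled signals of 21.1 and 20.5 in cKO, against 22.3 and 23.2 in WT. Both cKO arrays were below both WT arrays. The difference of -0.13 ± 0.04 (SE, 95% interval -0.24 to -0.02, limma adjusted p = 0.0567) did not pass, and its sign turned with quantile normalization (0.0289).

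Atf3, a stress-induced factor that pairs with JUN proteins and often represses, was close in both pools. Its probe (NM_007498, position 1545, chr1:192994547-192994606, minus strand) had scaled signals of 0.916 and 0.925 in cKO, against 0.970 and 0.969 in WT. The arrays did not overlap, and the difference was -0.07 ± 0.02 (SE, 95% interval -0.14 to -0.01, limma adjusted p = 0.0643), or 1.05-fold. It did not pass, and 46.4% of all genes were at least as far below 0.

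Both EGR genes were higher in the cKO pool, with an adjusted p under 0.05 and under 1.5-fold. Egr1 is the zinc finger factor that growth factors and wounding switch on most widely. Its probe (position 2856 of NM_007913, on chromosome 18) had scaled signals of 2.80 and 2.79 in cKO, against 2.25 and 2.23 in WT. Duplicates differed far less than the pools, and the difference was 0.32 ± 0.02 (SE, 95% interval 0.25 to 0.39, limma adjusted p = 0.00318), or 1.25-fold. Of all genes, 13.0% were at least as far above 0.

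Egr2, also called Krox20, drives myelination in Schwann cells and is known in the mouse hair follicle from progenitors of the hair shaft. Its probe (position 2786 of NM_010118, chr10:67004758-67004817, plus strand) gave array means of 5.99 and 6.23 in cKO, against 4.85 and 4.71 in WT, over 10 spots per array. The difference was 0.35 ± 0.03 (SE, 95% interval 0.25 to 0.46, limma adjusted p = 0.00546), or 1.28-fold, and 11.7% of all genes were at least as far above 0. The repeat spots did not overlap: the lowest, median and highest were 5.47, 6.20 and 6.72 in cKO, against 4.20, 4.82 and 5.15 in WT. Repeat spots share an array and a pool and are no replicates of a genotype.

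**Figure D3:**
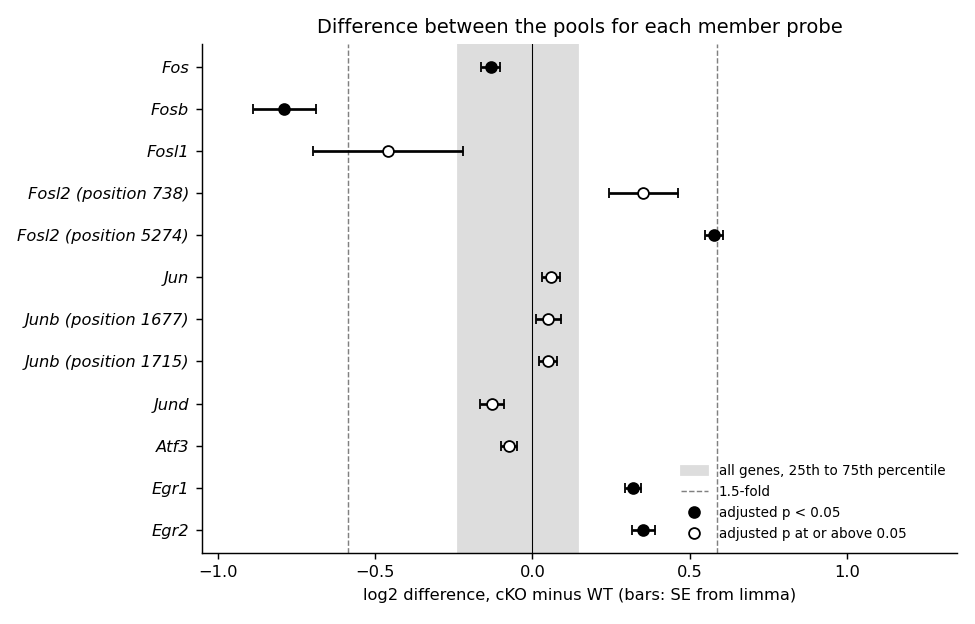
The log2 difference, cKO minus WT, of each member probe is plotted with its limma standard error. Filled points have an adjusted p under 0.05, dashed lines mark 1.5-fold, and the grey band holds the central 50% of all genes (-0.23 to 0.15). Fosb lies beyond the lower line, Fosl2 (position 5274) lies at the upper line, and the JUN genes and Atf3 lie within the band.

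The members were set beside 6 lists of related genes, each described by its counts and median and not tested as a list. None of the 16 measured of 17 listed AP-1 relatives and dimer partners was called by limma, with a median of 0.06. The unadjusted p was under 0.05 for 9 (56.25%), against 62.6% of all genes. The adjusted p was under 0.05 for 7 (43.75%), against 55.8% of all genes. The brightest genes of this list were Atf5 (-0.15) and Atf4 (0.06), factors of the amino acid and stress response. In the other EGR genes and their NAB corepressors, 3 of 4 were measured and none was called. All 3 had an adjusted and an unadjusted p under 0.05, against 55.8% and 62.6% of all genes. Nab2, which binds EGR proteins and limits their activity, was at 0.21 (limma adjusted p = 0.0126). Nab1 was at -0.12 (limma adjusted p = 0.0366) by its brightest probe but at 0.00975 as the mean of its probes. Egr3, named after its value was seen, was at 0.49 ± 0.06 (SE, limma adjusted p = 0.00882). Its adjusted p was not under 0.05 in 1 of 15 other settings. All 3 measured EGR genes thus stood higher in cKO and under 1.5-fold. Over all genes 42.9% were above 0 and 22.2% passed the adjusted p higher in cKO.

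The upstream list held the MAP kinases, their kinases and the serum response factor with its partners. None of the 21 measured of 23 was called. The limma adjusted p alone was passed by 9 (2 higher, 7 lower), or 42.9%, against 55.8% of all genes. The unadjusted p was under 0.05 for 11 (52.4%), against 62.6% of all genes. The median was -0.06. Mapk3, which encodes ERK1, had a difference of 0.01, and Mrtfa, a cofactor of serum response factor, had -0.06, with signs that turned under some settings.

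Of the other immediate-early genes 26 of 28 were measured, and 3 were called higher and 0 lower, with a median of 0.15. Dusp2, a nuclear phosphatase of MAP kinases, had scaled signals of 3.12 and 3.14 in cKO, against 1.07 and 1.05 in WT. It rose 2.96-fold (log2 difference 1.56 ± 0.03 SE, limma adjusted p = 0.000496). Arc, best known from neurons, rose 1.80-fold, with 0.245 and 0.244 in cKO, against 0.136 and 0.137 in WT. Ccn2, the matrix protein also called connective tissue growth factor, rose 1.67-fold, with 14.1 and 13.9 in cKO, against 8.35 and 8.49 in WT. The called share of this list was 11.5%, near the 10.5% of all genes. Over the list 20 genes (76.9%) were above 0 and 6 below, against 42.9% of all genes above 0. Higher in cKO by the adjusted p alone were 13 genes (50%), against 22.2% of all genes, and 3 (11.5%) were lower, against 33.6% of all genes.

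The list of AP-1 target genes known in skin moved in both directions, with 3 called higher and 3 lower among 24 measured of 25. The called share was 25%, against 10.5% of all genes, and the median was -0.23. The limma adjusted p alone was passed by 20 genes (83.3%), against 55.8% of all genes. Of these 8 were higher and 12 lower in cKO. Sprr1a, a precursor of the cornified envelope, rose 3.64-fold, with 34.8 and 35.4 in cKO, against 9.54 and 9.73 in WT. Hbegf, a ligand of the EGF receptor (0.70), and the gelatinase gene Mmp9 (0.65) rose as well. They were named to complete this count after their values were seen, and Mmp9 fell under 1.5-fold (0.56) as the mean of its probes. Other envelope precursors of this list, also named after their values were seen, lay below 0 and were not called. They were Sprr1b (-0.01), Sprr2d (-1.04), Ivl (-0.13) and Lor (-0.34). Mmp3, the stromelysin of stroma and epidermis, fell 2.04-fold, with 10.83 and 10.68 in cKO, against 22.1 and 21.8 in WT. The protease inhibitor gene Timp1 (-0.78) and S100a9, a calcium-binding protein of neutrophils and of stressed keratinocytes (-0.70), fell too. S100a8 of the same list, named after its value was seen, went the other way (0.32, limma adjusted p = 0.00458) and stayed under 1.5-fold.

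None of the 12 heat shock genes was called by limma, while 9 (75%) had an unadjusted and an adjusted p under 0.05. Over all genes these shares were 62.6% and 55.8%. The median of the heat shock genes was -0.15, with 11 below 0 and 1 (8.33%) above, against 42.9% of all genes above 0. By the adjusted p 8 (66.7%) were lower and 1 (8.33%) higher in cKO, against 33.6% and 22.2% of all genes. The brightest heat shock genes, Hspb1 (-0.15) and Hspa8 (-0.19), changed sign in both settings with quantile normalization.

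**Figure D4:**
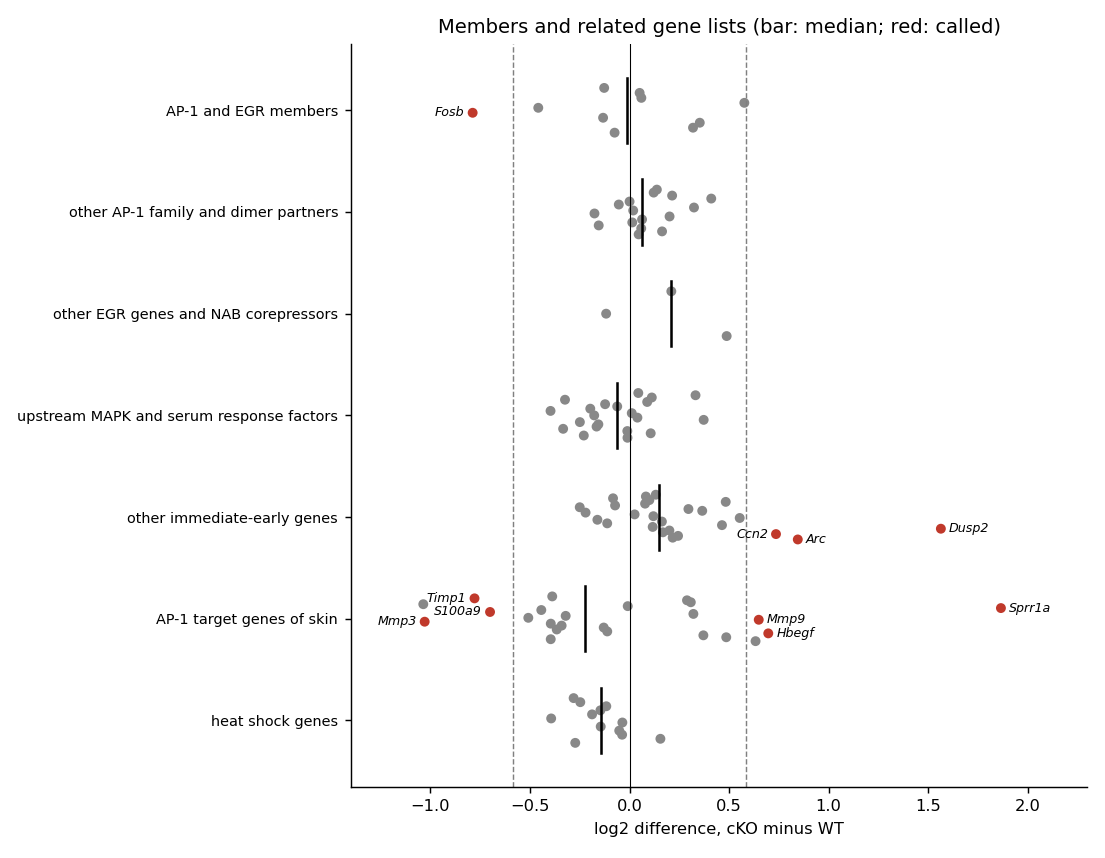
Each point is the log2 difference, cKO minus WT, of 1 measured gene, arranged by list, with a bar at the list's median, dashed lines at 1.5-fold and called genes in red and named. Fosb is the only called member, and calls in both directions appear only in the AP-1 target list among the 7 groups drawn.

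Markers of the cells that full-thickness skin holds were read from the same arrays, and their part in the members' differences was not tested. A summed signal adds probes that are not on a common scale, so its brightest probes weigh most. Over all genes 5.67% were called higher and 4.82% lower in cKO, and 62.6% had an unadjusted p under 0.05. All 14 measured of 19 markers of the hair shaft and inner root sheath, products of growing follicles, were called higher in cKO. Their summed scaled signal was 337 and 335 in cKO, against 2.01 and 2.10 in WT, although both pools were labelled telogen. Krt71, an inner root sheath keratin, was at 103.8 and 99.7 in cKO, against 0.362 and 0.366 in WT. Of these 14 markers 9 were well above background on all 4 arrays. Fosl2, Egr1 and Egr2 were higher in the pool with these markers, by under 1.5-fold each. Fosb (-0.79) and Fos (-0.13) were lower in that pool.

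Mbp, a structural gene of myelin, which Schwann cells make, had scaled signals of 4.36 and 4.50 in cKO, against 7.24 and 7.24 in WT. By its brightest probe Mbp fell by 0.71 on the log2 scale (limma adjusted p = 0.00149), while Egr2 was higher in cKO. The 3 Mbp probes ran from -0.95 to -0.18. Of the 9 Schwann cell and myelin markers 2 were called lower, 6 passed the adjusted p lower in cKO and 3 lay above 0. Their sums were 40.3 and 40.0 in cKO, against 54.3 and 54.6 in WT. Markers of the basal epidermis and outer root sheath, the cells in which Fgf18 was deleted, held 0 called genes of 8 by limma. Of these 8, 3 (37.5%) had an unadjusted and an adjusted p under 0.05, all higher in cKO. Over all genes 22.2% passed the adjusted p higher. The other 5 markers lay below 0. The sums of the 8 markers were 553 and 545 in cKO, against 551 and 581 in WT. Macrophage markers also had 0 called of 7 (4 with an unadjusted and an adjusted p under 0.05, all lower in cKO). They summed to 139 and 136 in cKO, against 149 and 150.4 in WT. Mast cell markers, with 2 of 6 called lower, summed to 23.7 and 23.5 in cKO, against 34.7 and 33.3 in WT. Of these 6 genes 5 passed the limma adjusted p lower and 1 higher in cKO. Skeletal muscle markers had 4 of 10 called lower, with sums of 879 and 879 in cKO, against 1207 and 1265 in WT. All 10 passed the limma adjusted p lower in cKO, against 33.6% of all genes. Differentiated epidermis markers summed to 366 and 362 in cKO, against 440 and 466 in WT. Of these 8 genes 5 were lower with an adjusted p under 0.05 by limma, among them Lor (-0.34) and Krt10 (-0.28), without reaching 1.5-fold. The other 3 passed the adjusted p higher in cKO, and of them 1 was called, Krt2 (0.63), with scaled signals of 0.0933 and 0.0957 in cKO, against 0.0571 and 0.0654 in WT. Endothelial markers had 1 of 5 called lower, with sums of 5.50 and 5.53 in cKO, against 7.91 and 7.89 in WT. All 5 passed the limma adjusted p lower in cKO. Fibroblast markers had 1 of 6 called lower and 3 that passed the limma adjusted p lower, with sums of 764 and 766 in cKO, against 828 and 909 in WT. Adipocyte markers also had 1 of 6 called lower, with sums of 439 and 447 in cKO, against 441 and 463 in WT. Of these 6 genes 3 passed the limma adjusted p lower and 1 higher in cKO. T cell markers had 1 of 6 called, Cd4, which was not well above background on the WT arrays. Set against the detection limit of the WT arrays, it was at least 14.0-fold higher in cKO in the main setting. Its log2 difference was 3.94 there and 2.54 with normexp background correction and quantile normalization. Fgf18 itself was at 3.63 and 3.64 in cKO, against 4.52 and 4.62 in WT (-0.33, limma adjusted p = 0.00353). The sources used here do not say whether its probe lies in the deleted part, so this value does not check the labels.

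Across 15 other ways to process the arrays, the sign of the difference did not turn for Fos, Fosb, Fosl1, Fosl2, Jun, Junb, Atf3, Egr1 or Egr2. Only Jund turned among the members. Egr1 stayed between 0.31 and 0.35 and Egr2 between 0.32 and 0.43 on the log2 scale, with a limma adjusted p of at most 0.0329 and 0.0360. Fosl2 stayed between 0.46 and 0.61, on both sides of the 1.5-fold line at 0.58. Fosb ranged from -0.91 to -0.43 and Fosl1 from -0.77 to -0.15, the widest ranges among the members, and both are genes with signals close to the limit of detection.

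**Figure D5:**
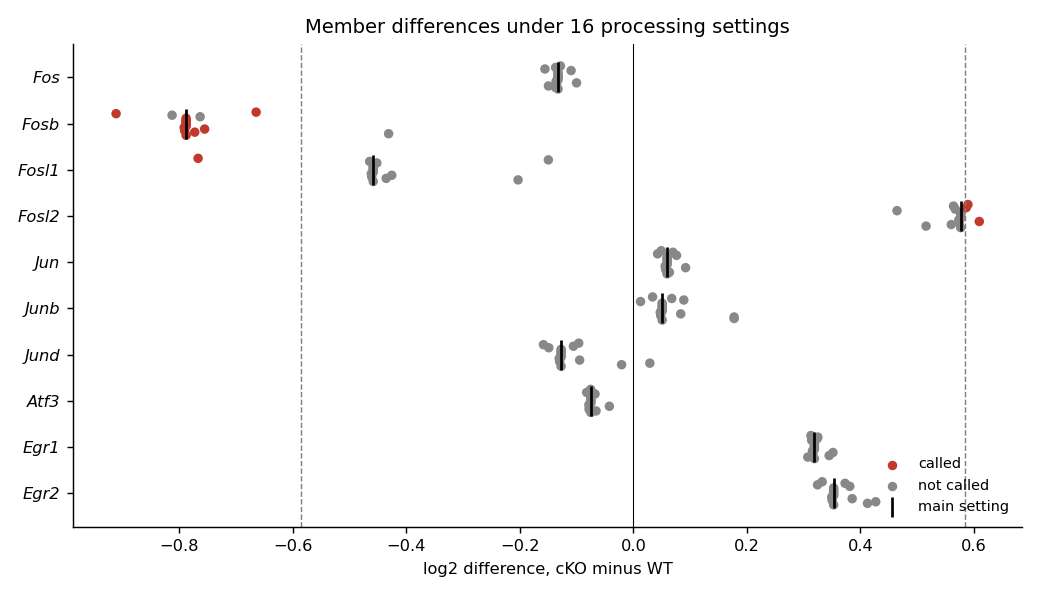
Each point is the log2 difference, cKO minus WT, of a member under 1 processing setting, with a black bar at the value reported above, dashed lines at 1.5-fold and called values in red. The values of Fosb and Fosl1 spread most, and those of Egr1 and Egr2 stay on the same side of 0 and under 1.5-fold in all settings drawn.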

How the data were processed

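Expression was measured on 4 one-colour arrays, 2 for cKO and 2 for WT, with RNA of 3 mice pooled per genotype. Per the file headers, the deposited scanner files hold the spot intensity that Agilent Feature Extraction 10.7.3.1 had background-subtracted and detrended. The authors' deposited value table is a linear ratio, the same intensity divided by 1 number per array, with no centring per gene (column medians 0.101 and 0.0983 for cKO, 0.0987 and 0.101 for WT), and was used as an alternative. Control spots, non-uniform spots and population outliers were left out, log2 intensities were scaled to each array's 75th percentile, and spots of a probe were averaged. A probe was kept if well above background on both arrays of a group, and a gene was its brightest kept probe. Groups were compared with limma 3.58.1 (lmFit, eBayes, two-sided, Benjamini-Hochberg over 17555 genes, and over 26070 probes for single probes) in R 4.3.3 with data.table (version 1.17.8). Python 3.11.15, pandas 2.3.3 and matplotlib 3.10.9 were also used. No batch could be fitted, since 1 slide and 1 scan held all arrays. Duplicate arrays correlated at 0.997 (cKO) and 0.996 (WT) across genes, and the number of arrays limits the precision. The code was tested on simulated data.

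Coordinates are those of the scanner files (mm9), and no mm9 gene models were used here, so exons and untranslated regions are not stated. Probe names were updated in a RefSeq table of GRCm38.p6, through an accession for 26690 probes, a symbol for 5189 and an outdated symbol for 952, while 8343 kept the file's name. The members and lists were chosen with earlier results of these data known. Genes named are all members, up to 4 called genes of each related list with the largest change or else its 2 brightest, the brightest and called markers of a cell type list, and Fgf18. A gene that this rule selects is not reported here. Alternatives were other background corrections and scalings, other filters, kept outlier spots, the mean of a gene's probes, leaving out each array, a replicate block, and moderation with an intensity trend and robust estimation.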

Additional observations from a re-analysis of the deposited data

How the results depend on the processing

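Fosb was the member call that depended on the processing, and Fosl2 and Fosl1 joined it in some settings. With normexp background correction and quantile normalization, 0 members and 0 member probes were called (limma, Fosb at -0.43), while calls over the array came to 1199 genes and 1522 probes, against 1843 genes and 2535 probes in the reported setting. Scaling over probes detected on every array called 2 members and 2 member probes, Fosb and Fosl2. Leaving out 1 array at a time gave between 0 and 3 members, and between 0 and 3 member probes. The 0 arose without cKO array 1, where Fosb was at -0.76 (limma adjusted p = 0.0590), and the 3 without WT array 2, where Fosb, Fosl1 (-0.77) and Fosl2 (0.59) were called. Over the array these fits called between 1709 and 1939 genes and between 2261 and 2693 probes. With 1 array left in a group, that array is assumed to vary like the duplicates of the other group.

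Signs turned with quantile normalization for Jund (0.0289), Mrtfa (0.0325), Hspb1 (0.0643) and Hspa8 (0.00958). With normexp and quantile normalization they turned for Mrtfa (0.0126), Hspb1 (0.0945) and Hspa8 (0.0270). The mean of a gene's probes turned Nab1 (0.00975) and Mrtfa (0.0523) and left Mmp9 at 0.56. Leaving out 1 array at a time moved Mapk3 between -0.0190 (without cKO array 2) and 0.0414 (without cKO array 1). The cause was not tested for any of these. Without WT array 2, the upstream list had 1 called gene.

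The replicate numbers only name the duplicates: deviations of same-numbered arrays from their group means had a correlation of -0.04 across genes. With the replicate number as a block, 1815 genes, 2449 probes, 1 member and 1 member probe were called (Fosb, limma adjusted p = 0.0205). The share of calls that were higher in cKO ran from 48.1% to 59.9% over all settings, against 54.0% as reported. The limits are those of 1 pool per genotype and of dim probes: Fosb, Fosl1 and the Fosl2 probe at position 738 were read near the limit of detection, and 4 arrays give no measure of the spread between mice.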
